A study of Mus musculus with 24 samples.

Results

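The sex difference of the wild-type mouse liver was described in the 12 wild-type libraries of a 24-library series, 6 from males (mWT) and 6 from females (fWT), over autosomal genes. The libraries were chosen by the genotype and sex in their labels, and the 12 knockout libraries were not used. All 12 mice carried an intact major urinary protein (Mup) gene cluster on a C57/BL6N background and were 12 weeks old. They were the wild-type offspring of heterozygous parents from a CRISPR/Cas9 line that goes back to a single male founder with the cluster deleted. They ate standard chow, were fasted and anaesthetized for a microCT scan and were killed by cardiac puncture, and the liver was snap frozen. One stranded mRNA library was made per mouse, and the hour of sampling and the stage of the oestrous cycle are not given in the sources used here.

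Growth hormone is the best known regulator of sex differences in rodent liver. The pituitary releases it in widely spaced pulses in males and more continuously in females, and in the hepatocyte it acts through its receptor, the kinase JAK2 and the transcription factor STAT5. The repressors BCL6 and CUX2 share target genes with STAT5, and the genes under this control include many cytochrome P450 (Cyp) enzymes, sulfotransferases, drug and steroid transporters and secreted proteins.

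The total count per library ranged from 15607671 to 20133292 in mWT and from 18337992 to 22789295 in fWT, so that 3 counts, taken as the smallest detectable amount, lay between 0.132 and 0.192 CPM, the usual read count scaled to library size. Reads of mitochondrial genes took 5.05 to 6.98% of the counts in mWT and 4.41 to 5.46% in fWT mice. The Y-linked genes matched the labelled sex in 12 of 12 libraries. Of 24514 autosomal genes listed, 7103 had no count in any of the 12 mice and 11644 passed the filter of 0.66 CPM in at least 6 libraries. CPM values are scaled by TMM and not by gene length, so they compare mice for one gene and not one gene with another.

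Of the 11644 autosomal genes tested, 849 (7.29%) were higher in mWT and 951 (8.17%) were higher in fWT mice at an adjusted p-value under 0.05, and such genes are named called here. The counts called in the gene lists below are to be read beside these shares. The quasi-likelihood test of edgeR gave the p-values, which were adjusted after Benjamini and Hochberg over the 12021 genes tested on all chromosomes. The split of the calls depended on the scaling, since 608 genes were higher in mWT and 1106 in fWT when libraries were scaled by their totals alone, 35.5% of the calls being higher in mWT against 47.2% with TMM. Most differences were small: 1001 of the 1800 called genes (55.6%) differed by less than 1.5-fold. The median difference of the called genes was 1.34-fold in those higher in mWT and 1.58-fold in those higher in fWT. Differences of at least 2-fold were called in 144 genes (1.24%) higher in mWT and in 210 (1.8%) higher in fWT, and differences of at least 4-fold in 60 (0.515%) and 59 (0.507%), or 1.02% of the genes together. At an unadjusted p-value under 0.01, the cut-off used in the study, 940 genes (8.07%) were higher in mWT and 1043 (8.96%) in fWT. The median log2 fold change of all tested genes was -0.0022.

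The groups of mice did not overlap for 886 genes (7.61% of those tested), 403 (3.46%) with all mWT mice above all fWT mice and 483 (4.15%) the other way round, and 840 of the called genes were among them. Without TMM the corresponding counts were 273 and 549. The first principal component of the tested genes held 58.9% of the variance and separated the sexes, with scores from 30.1 to 36.1 in mWT and from -38.5 to -29.4 in fWT (p = 0.00216 in an exact two-sided permutation test, which is the lowest that 6 against 6 mice can give). The second held 8.36% and overlapped between the sexes (exact permutation p = 0.842). Genes were centred and not scaled, so those of the greatest variance weighed most. With each gene scaled to unit variance, the first component held 24.8% of the variance and again separated the sexes, and the second held 16.5%. The 144 genes at least 2-fold higher in mWT took 5.47% ± 1.08 (SD, n = 6) of all counts in mWT, and the share of these genes was 1.14% ± 0.0968 (SD, n = 6) in fWT. Without the Mup genes among them these shares were 2.83% ± 0.456 and 0.725% ± 0.0506 (SD, n = 6 each). The 210 genes at least 2-fold higher in fWT took 0.268% ± 0.0345 in mWT and 1.52% ± 0.118 in fWT (SD, n = 6 each).

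**Figure D1:**
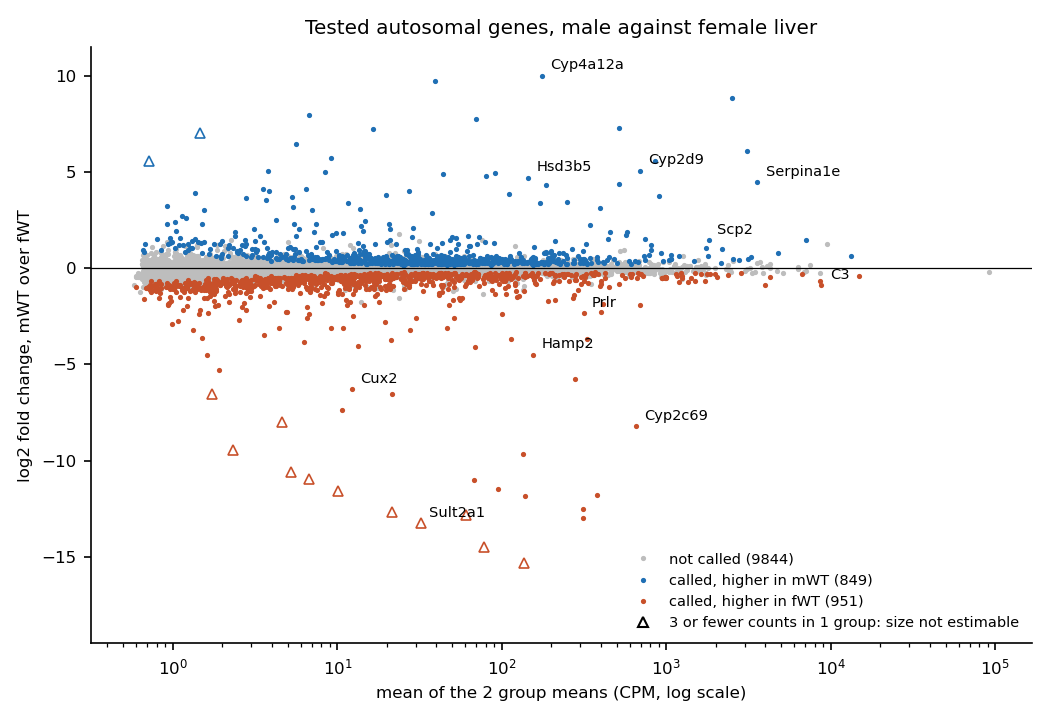
Log2 fold change of mWT over fWT against the mean of both group means in CPM (log scale) for the 11644 tested autosomal genes, with called genes in blue (849, higher in mWT) and red (951, higher in fWT). Open triangles mark genes with 3 or fewer counts in one group, whose fitted size depends on a prior count. That size enters the counts, medians and rankings but is not printed for single genes. Called genes lie on both sides at all levels, and most of them are close to the zero line.

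The genes with the greatest excess in females were drug- and steroid-metabolizing enzymes that were at or next to zero in males. No count in any mWT mouse was found for 8 of the called genes, namely Cyp2b13, Cyp3a41a, Sult2a1, Sult2a2, Sult2a4, Sult2a5, Sult2a6 and Sult3a2, while 0 of the genes called higher in mWT were without a count in all fWT mice. Cyp2b13 (ENSMUSG00000040583), a cytochrome P450 of the phenobarbital-inducible subfamily, was at 148 CPM in the lowest, 286 in the median and 352 in the highest fWT mouse. Against a floor of 3 counts over the 6 males it was at least 8990-fold higher in fWT. Its neighbour Cyp2b9 reached 457, 641 and 734 CPM (lowest, median, highest) in fWT and at most 0.187 CPM in mWT mice (log2 fold change -12.98, SE 0.288, adjusted p = 1.03e-13). SE is here the absolute log2 fold change over the square root of the test's F statistic. Where a group held few counts, as the males did for Cyp2b9, it can be smaller than the counting error alone. Cyp2a4, a steroid 15-alpha-hydroxylase, lay between 617 and 1050 CPM in fWT and between 0.0624 and 0.357 CPM in mWT (log2 fold change -11.78, SE 0.229, adjusted p = 3.47e-15). All 6 females stood far above all 6 males for each of these genes.

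Of 8 tested Cyp3a genes, which code for steroid and drug hydroxylases, 5 were called higher in fWT and 0 in mWT. Cyp3a41a was at 44.8, 180 and 242 CPM (lowest, median, highest) in fWT and at 0 in mWT, at least 5150-fold higher. Cyp3a16 had 1 count in a single mWT mouse against 14.5 to 253 CPM in fWT, a ratio of 11800 with a 95% counting interval from 2120 to 467000. Cyp3a44 ranged from 57.8 to 213 CPM in fWT and reached 0.246 CPM in mWT (log2 fold change -10.98, SE 0.673, adjusted p = 1.13e-06). Cyp3a11, the abundant drug-inducible member of this subfamily, was at 1906 to 4199 CPM in fWT and 2899 to 6121 CPM in mWT, and the groups overlapped (log2 fold change 0.32, SE 0.191, adjusted p = 0.281). Among females, fWT mice 3 and 6 held the 2 lowest values of Cyp3a16, Cyp3a41a, Cyp3a41b and Cyp3a44. The same 2 mice held the 2 lowest values of Sult2a1, Sult2a2 and Sult2a5, described next. For Cyp3a41a, 90.8% of its windows of 100 bases, the read length, occur word for word in transcripts of Cyp3a41b or Cyp3a44, so its counts cannot be kept apart from theirs with certainty. The share was 88.2% for Cyp3a41b, with Cyp3a41a.

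The Sult2a genes code for hydroxysteroid sulfotransferases, which add sulfate to bile acids and to steroids such as DHEA. Sult2a1 was at 9.97, 66.5 and 145 CPM (lowest, median, highest) in fWT and at least 2140-fold higher than in mWT. Sult2a2 was at 13.2 to 75.2 CPM and Sult2a5 at 5.57 to 36.5 CPM in fWT, at least 1440-fold and at least 669-fold higher. Sult3a1, an amine sulfotransferase, was more even, with 114, 211 and 231 CPM in fWT against at most 0.127 CPM in mWT (log2 fold change -11.47, SE 0.334, adjusted p = 2.87e-11). Within fWT the highest mouse was thus more than 10-fold above the lowest for Sult2a1, with no such spread for Cyp2b9 or Sult3a1.

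A1bg, a plasma glycoprotein of the immunoglobulin superfamily, was at 136, 248 and 489 CPM in fWT and reached 0.306 CPM in mWT, where 4 of the 6 mice had no count (log2 fold change -11.83, SE 0.559, adjusted p = 7.97e-08). The lowest female was more than 100-fold above the highest male.

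The genes with the greatest excess in males, the Mup family left aside, began with the fatty acid omega-hydroxylase Cyp4a12a. It was at 205, 370 and 466 CPM (lowest, median, highest) in mWT and between 0.0517 and 0.766 CPM in fWT mice (log2 fold change 10.01, SE 0.388, adjusted p = 5.12e-09). Cyp4a12b, with which it shares 35.8% of its 100-base windows, was at 50.9 to 109 CPM in mWT and at most 0.18 CPM in fWT (log2 fold change 9.71, SE 0.351). No fWT mouse was without a count of Cyp4a12a, and no mWT mouse was without a count of Cyp2a4. The lowest values, 0.0517 CPM in fWT mouse 2 and 0.0624 CPM in mWT mouse 2, lay below the floor of 3 counts.

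Also among these genes were 3 of the Nat8 family of acetyltransferases. Nat8f5 was at 4.88, 12.1 and 23.7 CPM in mWT and at most 0.0835 CPM in fWT (log2 fold change 7.94, SE 0.54, adjusted p = 5.66e-07). Nat8 was at 11.7 to 20.9 CPM in mWT and 0.125 to 1.08 CPM in fWT (log2 fold change 5.01, SE 0.293). Nat8f6 was low even in males, at 1.01 to 5.73 CPM, and had 2 counts over all fWT mice, a ratio of 187 with a 95% counting interval from 51.3 to 1550. Of the 100-base windows of Nat8f6, 50.1% also occur in other Nat8 genes.

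Scara5, a scavenger receptor that binds ferritin, varied widely among males, with 67.1 CPM in mWT mouse 1 and 3.43 CPM in mWT mouse 2, but all males were above the highest female (0.444 CPM, log2 fold change 7.22, SE 0.93, adjusted p = 0.000475). Asns, asparagine synthetase, was at 7.29, 14.9 and 33.1 CPM in mWT and at 0 to 0.778 CPM in fWT (log2 fold change 5.75, SE 0.581, adjusted p = 5.61e-05). Elovl3, an elongase of very long chain fatty acids, was at 78.9, 129 and 378 CPM in mWT and 2.88 to 8.17 CPM in fWT (log2 fold change 4.95, SE 0.467, adjusted p = 4.46e-05). Asns and Elovl3 both spanned more than 4-fold among males, and neither overlapped between the sexes.

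Cyp2d9, a testosterone 16-alpha-hydroxylase, was at 988, 1422 and 1602 CPM in mWT and 21.2 to 65.9 CPM in fWT (log2 fold change 5.08, SE 0.277, adjusted p = 9.31e-08). Hsd3b5, which reduces steroids at the 3-keto position, was at 196, 283 and 352 CPM in mWT and 3.31 to 17.1 CPM in fWT (log2 fold change 4.71, SE 0.377, adjusted p = 1.06e-05). Capn8, a calcium-dependent protease, was at 2.84 to 11 CPM in mWT and 0.125 to 0.5 CPM in fWT (log2 fold change 5.05, SE 0.452). The glutamate receptor gene Grm8 was low in males, at 0.71 to 3.01 CPM, with 3 counts over the fWT mice, a ratio of 61.7 with a counting interval from 20.7 to 303.

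**Figure D2:**
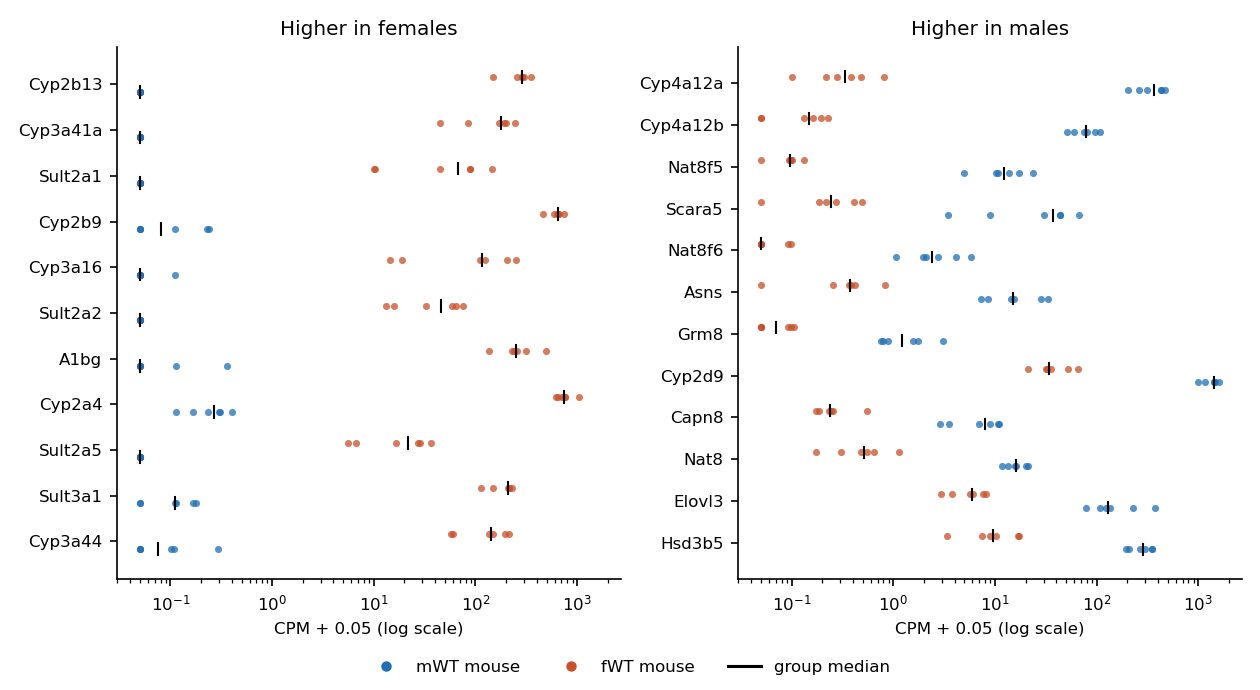
CPM + 0.05 (log scale) of each of the 6 mWT (blue) and 6 fWT (red) mice for 11 genes higher in fWT and 12 higher in mWT with the greatest fold changes outside the Mup family, with the group median as a black bar. The sexes do not overlap for any of the 23 genes, and 5 of the 11 female genes have all males at zero.

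The Mup genes code for secreted lipocalins that carry pheromones in urine. Of 17 tested, 14 were called higher in mWT and 0 in fWT, and together the 22 Mup genes took 1.7 to 3.68% of the counts in mWT and 0.344 to 0.555% in fWT. Mup20, known as darcin, was at 4322, 5937 and 8672 CPM in mWT and 60.6 to 148 CPM in fWT (log2 fold change 6.08, SE 0.278, adjusted p = 1.11e-08). Mup7 was at 3106 to 6717 CPM in mWT and 6.21 to 16.8 CPM in fWT (log2 fold change 8.86, SE 0.306). Mup3 kept a high level in females, at 3123 to 4909 CPM against 6492 to 12655 CPM in mWT (log2 fold change 1.48, SE 0.151, adjusted p = 7.47e-06). Mup18 was not called and overlapped between the sexes, with 37 to 232 CPM in mWT and 2.97 to 93.4 CPM in fWT. It shares 87.1% of its 100-base windows with other Mup genes. The share was 76.1% for Mup7, 38.8% for Mup20 (with the pseudogene Mup-ps19) and 2.23% for Mup3. The counts of Mup7 thus cannot be kept apart from those of other Mup genes with certainty.

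The genes with the greatest difference in CPM, the Mup family left aside, included several for secreted plasma proteins. C3, the central complement component, was at 4934, 6291 and 7123 CPM in mWT and 10559, 11393 and 12190.0 CPM in fWT (log2 fold change -0.89, SE 0.0989, adjusted p = 1.39e-05). Transferrin (Trf), which carries iron, was at 10302 to 15357 CPM in mWT and 15596 to 19044 CPM in fWT (log2 fold change -0.40, SE 0.0949, adjusted p = 0.00864). Ahsg, the plasma protein fetuin-A, was at 5672 to 7385 CPM in mWT and 8679.7 to 11866 CPM in fWT (log2 fold change -0.64, SE 0.0962, adjusted p = 0.000256). The groups did not overlap for these 3 genes although none differed by 2-fold.

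Ces1c, a plasma carboxylesterase, was the most uniform of this group, at 2747 to 2894 CPM in mWT and 4644 to 5336 CPM in fWT (log2 fold change -0.85, SE 0.0681, adjusted p = 3.1e-07). Selenop, the selenium carrier of plasma, and Mat1a, which makes S-adenosylmethionine, were also higher in fWT but overlapped between the sexes (log2 fold change -0.31, SE 0.0896, adjusted p = 0.0257 and -0.46, SE 0.117, adjusted p = 0.0139). Selenop was not called without any 1 of mWT mice 3, 5 or 6 or fWT mice 1, 2 or 5 (adjusted p from 0.055 to 0.0686).

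On the male side, the alpha-1-antitrypsin gene Serpina1e was at 3118, 6905 and 10449 CPM in mWT and 190, 280 and 501 CPM in fWT (log2 fold change 4.47, SE 0.38, adjusted p = 1.43e-05). Its paralog Serpina1c, with which part of its sequence is shared, was at 3743 to 4190.4 CPM in mWT and 2222 to 2922 CPM in fWT (log2 fold change 0.61, SE 0.0809, adjusted p = 7.96e-05). Serpina3k, a kallikrein-binding serpin, was at 14032 to 21312 CPM in mWT and 7022 to 14745 CPM in fWT, with overlap (log2 fold change 0.64, SE 0.173, adjusted p = 0.0222).

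The sterol carrier protein gene Scp2 was at 2415, 2630.5 and 3032 CPM in mWT and 769, 975 and 1161 CPM in fWT (log2 fold change 1.47, SE 0.0989, adjusted p = 3.71e-08). Mug1, an alpha-macroglobulin type protease inhibitor, was at 4659.6 to 7821 CPM in mWT and 2650.4 to 4703 CPM in fWT (log2 fold change 0.81, SE 0.148). Car3, a carbonic anhydrase, was at 2084 to 4069 CPM in mWT and 1143 to 2103 CPM in fWT (log2 fold change 1.01, SE 0.173). Mug1 and Car3 overlapped between the sexes by a single pair of mice each.

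In the growth hormone and STAT5 axis, 2 of 29 tested genes were called higher in mWT and 5 in fWT, beside 7.29% and 8.17% of all tested genes. The median of the 29 was -0.06 on the log2 scale. The receptor gene Ghr was at 629, 703 and 874 CPM in mWT and 526, 559 and 620 CPM in fWT (log2 fold change 0.37, SE 0.085, adjusted p = 0.00769). The kinase gene Jak2 (log2 fold change 0.09, SE 0.106) and the STAT genes Stat5a (0.06, SE 0.252) and Stat5b (-0.04, SE 0.147) had adjusted p-values of 0.607, 0.913 and 0.882. Igf1, the circulating growth factor induced by growth hormone, was at 682 to 860 CPM in mWT and 690 to 1016 CPM in fWT (log2 fold change -0.17, SE 0.0949, adjusted p = 0.241). Igfals, which binds IGF-1 in a ternary plasma complex, was at 37.6, 42.1 and 66.5 CPM in mWT and 60, 78.7 and 96.2 CPM in fWT, with overlap (log2 fold change -0.69, SE 0.181, adjusted p = 0.0211).

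Several transcription factors linked to dimorphic expression were called. Cux2, a homeobox repressor, was at 9.54, 20.8 and 43.3 CPM in fWT and 0.0634 to 0.458 CPM in mWT (log2 fold change -6.30, SE 0.508, adjusted p = 7.67e-06). Tox, an HMG-box factor, was at 11.7 to 22.5 CPM in fWT and 2.45 to 8.17 CPM in mWT (log2 fold change -1.66, SE 0.262, adjusted p = 0.00101). Trim24, a nuclear receptor coregulator, was at 50.1 to 80.7 CPM in fWT and 24.5 to 38.9 CPM in mWT (log2 fold change -1.10, SE 0.124, adjusted p = 2.13e-05). None of the 3 overlapped between the sexes. Smaller differences with overlap were called for Onecut2 (log2 fold change -0.39, SE 0.117, adjusted p = 0.0348) and, in the male direction, for the forkhead factor gene Foxa3 (0.61, SE 0.164, adjusted p = 0.0228). Onecut2 was not called without any 1 of mWT mice 1, 4, 5 or 6 or fWT mice 1, 2, 3, 4 or 6 (adjusted p from 0.0509 to 0.09), and Foxa3 without mWT mouse 6 or fWT mice 1, 3 or 4 (from 0.0507 to 0.0519). The count of 2 higher in mWT was 1 in these last 4 fits.

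Bcl6 and the feedback inhibitor genes Cish and Socs2 were not called and overlapped between the sexes. Bcl6 was at 80.3 and 73.7 CPM in mWT mice 6 and 2, at 35.6 CPM in mWT mouse 5, and at 8.87 to 12.9 CPM in the other 3 males, against 3.42 to 17.2 CPM in fWT (log2 fold change 1.79, SE 0.663, adjusted p = 0.0973). Cish, an inhibitor that STAT5 induces, was at 4.97 and 3.06 CPM in the same mWT mice 6 and 2, at 19.5 to 39.6 CPM in the other 4 males and at 14.6 to 52.3 CPM in fWT (log2 fold change -0.26, SE 0.598, adjusted p = 0.822). Socs2, another inhibitor of the growth hormone receptor, was at 6.06, 8.63 and 23.2 CPM in mWT and 9.56, 33.1 and 71.9 CPM in fWT (log2 fold change -1.55, SE 0.475, adjusted p = 0.0503). With DESeq2's Wald test the adjusted p-value was 0.0278 for Bcl6 and 0.00925 for Socs2, and with non-robust dispersions it was 0.0397 and 0.0164. Socs2 was also called without mWT mouse 5 (0.035) or fWT mouse 4 (0.0177), with library totals (0.0425) and with the adjusted deviances of edgeR 4 (0.0483).

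The mWT mice 2 and 6, which had the 2 highest values of Bcl6 and the 2 lowest of Cish, also had the 2 lowest values of Scara5 (3.43 and 8.9 CPM against 30.1 to 67.1 CPM in the other males). Moxd1, a monooxygenase-like gene known for its male excess in liver, was at 0.125 and 0.387 CPM in these 2 mice, at 36.1 to 83.6 CPM in the other 4 males and at 0 to 0.045 CPM in fWT. Because 2 of the 6 males were low, Moxd1 did not pass the expression filter and was not tested. Cyp4a12a and Hsd3b5 did not follow this order, with mWT mice 2 and 6 among the 3 highest males for each. The labels give no hour of sampling for any mouse.

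**Figure D3:**
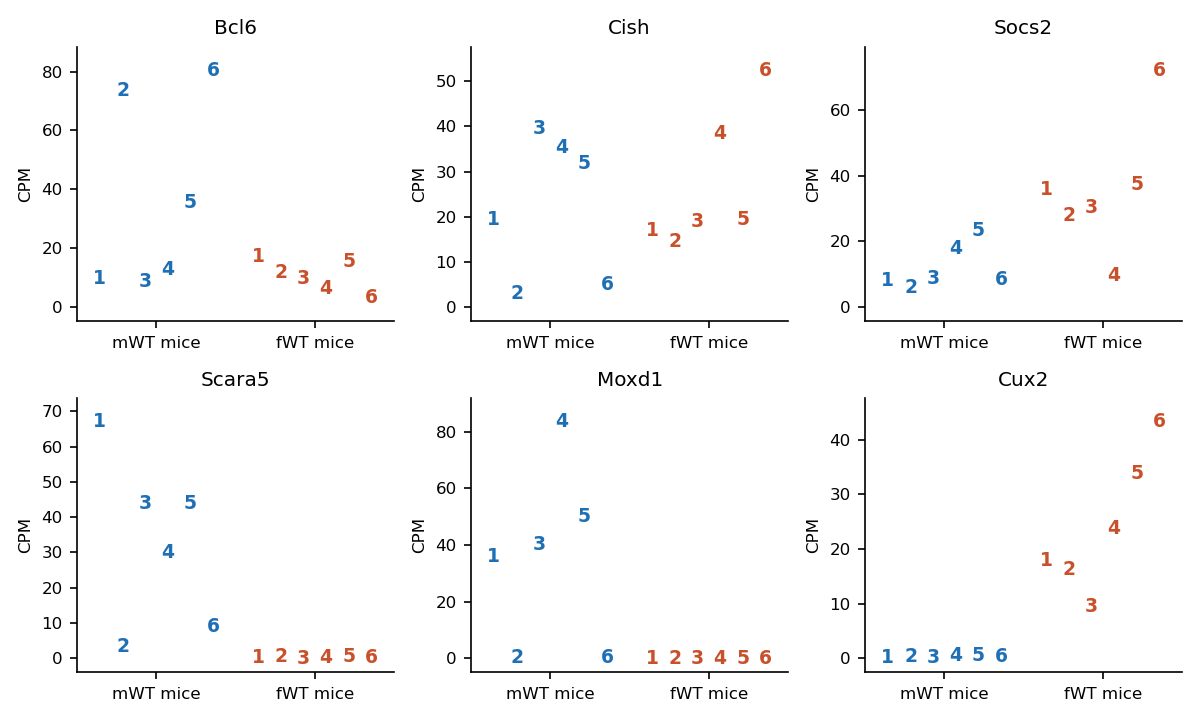
CPM of Bcl6, Cish, Socs2, Scara5, Moxd1 and Cux2 in each mouse, drawn as its replicate number (blue, mWT; red, fWT; equal numbers in both groups are different animals). The mWT mice 2 and 6 are highest for Bcl6 and lowest for Cish, Scara5 and Moxd1 among males, while Cux2 is near zero in all 6 males.

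STAT5 binds a palindrome with the letters TTCNNNGAA, which reads the same on both strands. The motif was looked for in RefSeq promoter windows (GRCm38.p6) from 250 bases before to 50 after the gene start, which were found for 107 of the 139 genes considered for naming. It occurred in 9.52% of the promoters of genes at least 2-fold higher in mWT (10 of 105 with a window) and in 11.1% of those at least 2-fold higher in fWT (16 of 144), beside 8.5% of tested autosomal genes (767 of 9024) and 9.64% of all autosomal promoters. The windows below are printed for the genes of the axis and for called genes of different function with a match, 5' to 3' on the gene's strand with the fixed letters of the motif in capitals.
Cish (chr9:107296649-107296677, + strand): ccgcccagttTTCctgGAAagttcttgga
Bcl6 (chr16:23988952-23988980, - strand): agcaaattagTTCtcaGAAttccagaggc
Igfals (chr17:24878163-24878191, + strand): ctgccaggtgTTCctaGAAgaggccctgg
Prlr (chr15:10223786-10223814, + strand): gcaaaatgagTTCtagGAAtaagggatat
Sult3a1 (chr10:33857603-33857631, + strand): gtttggctgaTTCtttGAAtagtttgttt
Slc22a26 (chr19:7802790-7802818, - strand): ctggctaattTTCaggGAAtttacaaatc
C8a (chr4:104876608-104876636, - strand): aacaaaactcTTCactGAActgattttag
Hamp2 (chr7:30924257-30924285, - strand): caccactatcTTCttgGAAttgagtcaag
Matches of this kind occurred in genes higher in mWT (C8a), higher in fWT (Igfals, Prlr, Sult3a1, Slc22a26, Hamp2) and not called (Cish, Bcl6), and a match says only that these letters are present.

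Among hormone and nuclear receptors, 2 of 23 tested genes were called higher in mWT and 3 in fWT, beside 7.29% and 8.17% of all tested genes. The prolactin receptor gene Prlr was at 417, 542 and 622 CPM in fWT and 73.8, 108 and 122 CPM in mWT (log2 fold change -2.33, SE 0.13, adjusted p = 4.11e-09). The leptin receptor gene Lepr was at 7.6 to 19.2 CPM in fWT and 2.43 to 6.26 CPM in mWT (log2 fold change -1.80, SE 0.264, adjusted p = 0.00045). The epidermal growth factor receptor gene Egfr was at 926 to 1277 CPM in mWT and 342 to 644 CPM in fWT (log2 fold change 0.96, SE 0.138, adjusted p = 0.000202). For these 3 membrane receptors the sexes did not overlap.

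Differences of the nuclear receptors were smaller. Rxrg, a retinoid X receptor, was higher in fWT without overlap (log2 fold change -0.81, SE 0.17, adjusted p = 0.00446), and Ppara, the fatty acid sensor, was higher in mWT with overlap (0.33, SE 0.0986, adjusted p = 0.0338). The oestrogen receptor gene Esr1 was at 18.4 to 50.4 CPM in mWT and 22 to 57.3 CPM in fWT (log2 fold change -0.66, SE 0.306, adjusted p = 0.179). Nr1i3, the xenobiotic receptor CAR, was at 123 to 373 CPM in mWT and 270 to 597 CPM in fWT (log2 fold change -0.84, SE 0.268, adjusted p = 0.0532). Nr1i3 was called with DESeq2 (adjusted p = 0.014), non-robust dispersions (0.0264) and library totals (0.0423) and without mWT mouse 2 (0.0285) or fWT mouse 4 (0.033). Ppara was not called with library totals (0.0589) or without any 1 of mWT mice 2, 3 or 6 or fWT mice 1, 2 or 4 (from 0.0642 to 0.0715), so that Egfr was then the only receptor of the list called higher in mWT.

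Of 67 tested Cyp genes, 11 were called higher in mWT and 25 in fWT, against 7.29% and 8.17% of all genes, and their median log2 fold change was -0.24. All 3 tested Cyp2b genes and 7 of 13 Cyp2c genes were higher in fWT. Cyp2c69 was at 859, 1338 and 1688 CPM in fWT and 0.634 to 15.4 CPM in mWT (log2 fold change -8.20, SE 0.706, adjusted p = 2.62e-05), and Cyp2c40 at 426 to 670 CPM in fWT and 2.09 to 30.6 CPM in mWT (-5.74, SE 0.583). The highest male was mWT mouse 4 for both, and 35.4% and 34.4% of their 100-base windows occur in other Cyp2c genes. Cyp2b10, the CAR-inducible member of its subfamily, was at 24.1 to 54.6 CPM in fWT and 0.713 to 5.67 CPM in mWT (log2 fold change -3.74, SE 0.418). The one Cyp2c gene called higher in mWT was Cyp2c55 (log2 fold change 0.99, SE 0.231, adjusted p = 0.00973).

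Several families held neighbouring paralogs that differed in opposite directions. In the Cyp4a cluster, Cyp4a12a and Cyp4a12b were higher in mWT while Cyp4a14, Cyp4a10 and Cyp4a31 were higher in fWT (log2 fold change -3.70, SE 0.889; -2.28, SE 0.468; -1.31, SE 0.325). These last 3 overlapped between the sexes. Cyp4a14 was at 185 CPM in mWT mouse 2 beside 7.13 to 32.7 CPM in the other males and 160 to 997 CPM in fWT. Among organic anion transporter-like Slc22 genes on chromosome 19, Slc22a26 was at 211 to 309 CPM in fWT and at most 0.562 CPM in mWT (log2 fold change -9.63, SE 0.193, adjusted p = 3.47e-15). Slc22a28, in contrast, was at 5.89 to 19.1 CPM in mWT and 0.87 to 2.42 CPM in fWT (log2 fold change 3.04, SE 0.31, adjusted p = 2.49e-05). Slc22a27 went with Slc22a26 (-6.56, SE 0.322), and Slc22a28 shares 37% of its 100-base windows with Slc22a27 and 2 other Slc22 genes.

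The sinusoidal uptake transporters Slco1a1 and Slco1a4 were opposed as well, Slco1a1 at 552 to 827 CPM in mWT and 124 to 328 CPM in fWT (log2 fold change 1.87, SE 0.27, adjusted p = 0.000703) and Slco1a4 at 35.7 to 119 CPM in mWT and 230 to 352 CPM in fWT (-1.68, SE 0.234, adjusted p = 0.000437). Among UDP-glucuronosyltransferases, which conjugate steroids and bilirubin, Ugt2b38 was at 5.58 to 48 CPM in mWT and 0.389 to 3.49 CPM in fWT (log2 fold change 3.39, SE 0.613). Its neighbour Ugt2b37 was at 1.14 to 9.27 CPM in mWT and 13.3 to 35.8 CPM in fWT (-2.49, SE 0.449). Of 19 genes of this family, 4 were called higher in mWT and 10 in fWT. Of those 10, 9 are Ugt1a genes, which share their last exons and so count as about 1 locus, and its Ugt1a1 was at 932 to 1108 CPM in mWT and 1302 to 1564 CPM in fWT (-0.53, SE 0.0754).

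Sulfotransferases were mostly higher in fWT, 10 of 14, and Sult2a8, a bile acid sulfotransferase, was the one called higher in mWT (979 to 1325 CPM against 615 to 767 CPM, log2 fold change 0.77, SE 0.0929). Carboxylesterases, which hydrolyse esters and drugs, leaned the other way by the number of calls, with 7 of 13 higher in mWT and 3 in fWT. The count of 7 was 5 with library totals and without mWT mouse 3. Their summed level was nevertheless higher in fWT, at 9474 to 10050 CPM against 7898 to 9354 CPM in mWT. Ces3a was at 1980.3 to 2548 CPM in mWT and 967 to 1453 CPM in fWT (log2 fold change 1.03, SE 0.103). Of 20 glutathione S-transferases, 4 were higher in mWT and 5 in fWT. The greatest fold change in the male direction was that of Gstp2 (log2 fold change 3.53, SE 0.4, adjusted p = 4.98e-05). Gstp2 was at 3.37 to 15.3 CPM in mWT and 0.389 to 0.931 CPM in fWT, and shares part of its sequence with Gstp1. The more abundant Gstp1 was at 336 to 1043 CPM in mWT and 66.3 to 104 CPM in fWT. Its log2 fold change was 3.12 (SE 0.235, adjusted p = 1.9e-06). Gstt3 led in the female direction (-1.34, SE 0.217). Of 5 flavin-containing monooxygenases 4 were higher in fWT, and the fifth, Fmo5, had a log2 fold change of 0.63, SE 0.205, adjusted p = 0.054) and was called higher in mWT with DESeq2 (0.00792), with non-robust dispersions (0.0393) and without mWT mice 2 or 3 or fWT mouse 6 (0.0496, 0.039 and 0.0438).

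**Figure D4:**
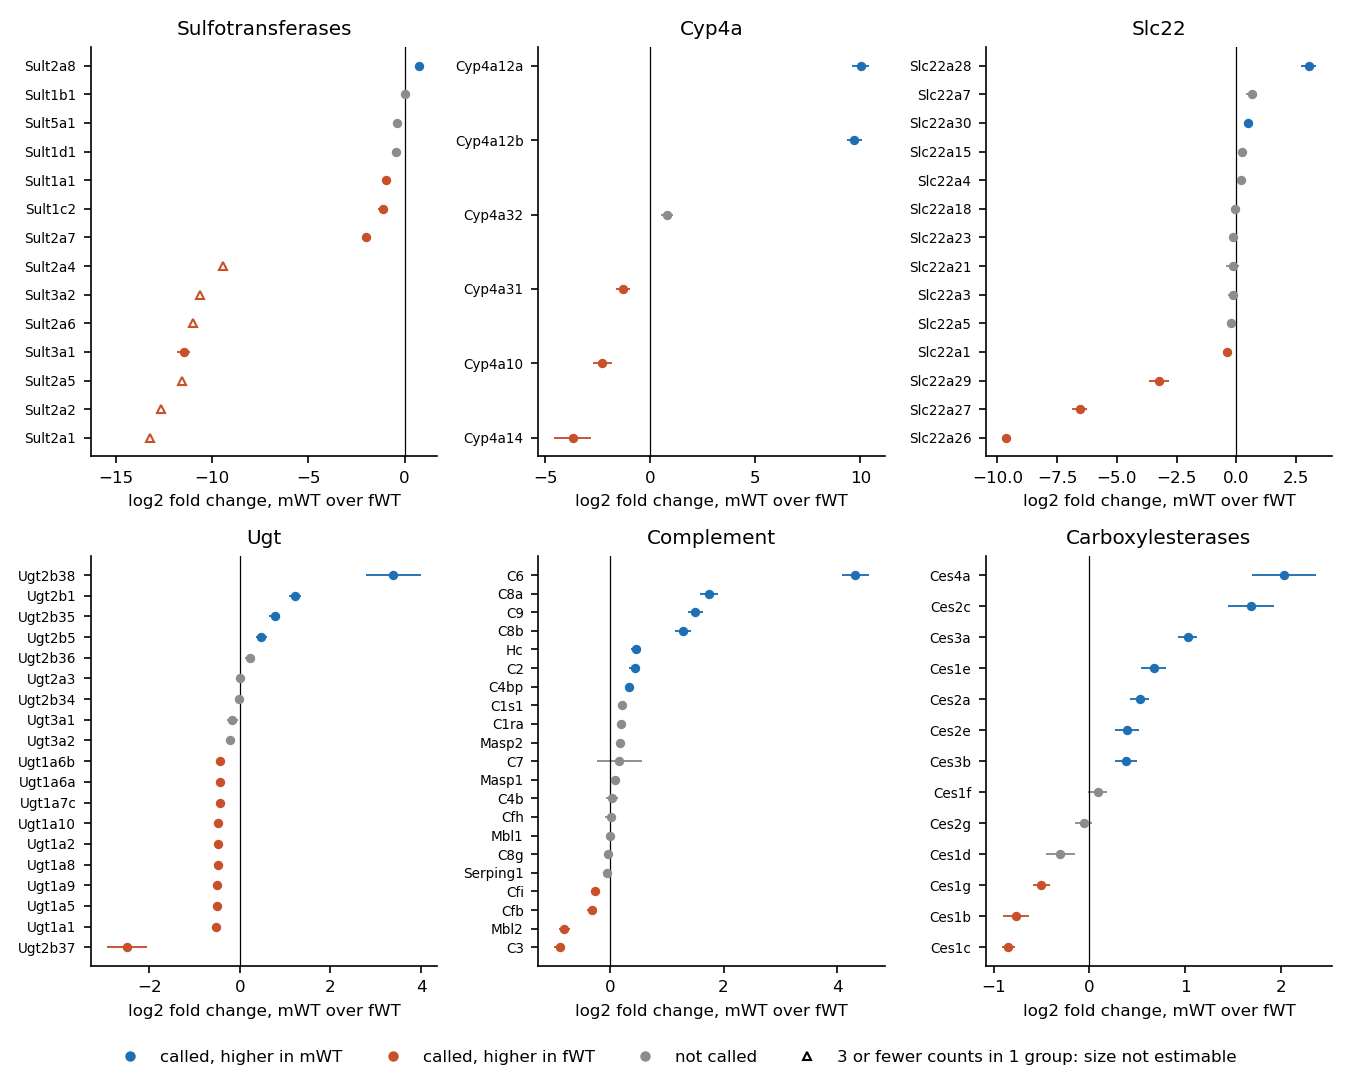
Log2 fold change of mWT over fWT for every tested member of 6 gene families, coloured by call. Bars are the SE, derived from the test's F statistic. Open triangles mark genes with 3 or fewer counts in one group, drawn without an error. Each family holds members called in both directions, from -9.63 to 3.04 in the Slc22 family and from -0.89 to 4.32 among complement genes.

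Genes of steroid and bile acid metabolism also differed. Of 4 tested Hsd3b genes 3 were higher in mWT, namely Hsd3b5, Hsd3b2 (log2 fold change 1.03, SE 0.134) and Hsd3b3 (0.77, SE 0.0841), while Hsd3b7, which acts in bile acid synthesis, had a log2 fold change of -0.11, SE 0.153, adjusted p = 0.67). Cyp17a1, the steroid 17-alpha-hydroxylase, was at 92.3 to 304 CPM in fWT and 8.71 to 23.2 CPM in mWT (log2 fold change -3.66, SE 0.347, adjusted p = 3.78e-05). In bile acid synthesis and transport, 5 of 20 genes were higher in mWT and 4 in fWT, beside 7.29% and 8.17% of all tested genes. The count of 5 was 3 without mWT mouse 5 or fWT mouse 3 and with library totals. Cyp7b1, the oxysterol hydroxylase of the acidic pathway, was at 220, 420 and 793 CPM in mWT and 34.4, 39.5 and 52 CPM in fWT (log2 fold change 3.43, SE 0.274, adjusted p = 5.48e-06).

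Cyp8b1, the 12-alpha-hydroxylase needed for cholic acid, was at 306 to 468 CPM in mWT and 98.9 to 336 CPM in fWT (log2 fold change 0.91, SE 0.247, adjusted p = 0.0258). Cyp39a1, which hydroxylates 24-hydroxycholesterol, was at 35.4 to 56.5 CPM in mWT and 67.4 to 98.4 CPM in fWT (-0.93, SE 0.12, adjusted p = 6.99e-05). The rate-limiting enzyme gene Cyp7a1 was at 125 to 919 CPM in mWT and 231 to 578 CPM in fWT, and its adjusted p-value was 0.928 (log2 fold change 0.08, SE 0.423). Cyp8b1 was not called without any 1 of mWT mice 5 or 6 or fWT mice 2 or 3 (adjusted p from 0.0505 to 0.0545) or with no filter (0.0527).

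In the complement system, 7 of 21 tested genes were higher in mWT and 4 in fWT. Among the genes called higher in mWT were 5 of the terminal pathway, which forms the membrane attack complex. C6 was at 283, 326 and 483 CPM in mWT and 11.4, 16.1 and 25.3 CPM in fWT (log2 fold change 4.32, SE 0.239, adjusted p = 8.91e-08). C8a was at 751 to 1142 CPM in mWT and 208 to 359 CPM in fWT (1.74, SE 0.167, adjusted p = 6.93e-06), and C8b at 359 to 675 CPM and 160 to 225 CPM (1.28, SE 0.145). C9 was at 488 to 856 CPM in mWT and 181 to 261 CPM in fWT (1.5, SE 0.136, adjusted p = 1.9e-06), and Hc, the gene of C5, at 1051 to 1463 CPM and 812 to 1046 CPM (0.46, SE 0.0906).

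Higher in fWT were C3 and, of the initiating and regulating steps, Mbl2 (583 to 743 CPM against 330 to 434 CPM in mWT, log2 fold change -0.80, SE 0.0902), Cfb (-0.32) and Cfi (-0.27). C7 and C8g, of the terminal pathway too, were not called (log2 fold change 0.16 and -0.04). C4bp and C2 were the remaining genes called higher in mWT (0.33 and 0.43).

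Coagulation genes leaned to fWT, with 6 of 19 higher in fWT and 1 in mWT, all by less than 1.5-fold. F7, the factor that starts the extrinsic pathway, was at 106 to 128 CPM in fWT and 67.7 to 94.6 CPM in mWT (log2 fold change -0.56, SE 0.0852, adjusted p = 0.000292), and Serpinc1, antithrombin, at 2083 to 2307 CPM and 1649 to 1853 CPM (-0.29, SE 0.0665, adjusted p = 0.00684). The count of 6 ranged from 3 (without fWT mouse 1) to 9 (without mWT mouse 1) when single mice were left out. It was 4 without mWT mouse 5, mWT mouse 6 or fWT mouse 5.

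Of 16 acute phase genes 5 were higher in fWT and 1 in mWT, beside 8.17% and 7.29% of all tested genes. Fgl1, a hepatokine, was at 295 to 465 CPM in fWT and 93.6 to 259 CPM in mWT (log2 fold change -1.37, SE 0.228, adjusted p = 0.00161), and Itih4, a protease-sensitive plasma protein, at 1839 to 2259 CPM and 1109.9 to 1518 CPM (-0.66, SE 0.088, adjusted p = 7.45e-05). Saa4, a constitutive serum amyloid, was the one higher in mWT (0.60, SE 0.141, adjusted p = 0.00951).

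Of 14 iron handling genes 4 were higher in fWT and 0 in mWT, beside 8.17% and 7.29% of all tested genes. Hamp2, the second hepcidin gene of the mouse, was at 129, 263 and 529 CPM in fWT and 4.43, 13.8 and 21.1 CPM in mWT (log2 fold change -4.48, SE 0.54, adjusted p = 0.00028). Hamp, the hepcidin that blocks iron export, was at 1238 to 1946 CPM in fWT and 536 to 1318 CPM in mWT, with overlap (-0.56, SE 0.193, adjusted p = 0.0655). Hamp was called with DESeq2's Wald test (adjusted p = 0.0189), without mWT mouse 5 (0.0499) and with library totals (0.0478).

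Of all tested genes 7.29% were called higher in mWT. In fatty acid and triglyceride synthesis, 2 of 24 genes were called, both higher in mWT. These were Elovl3 and the acyltransferase gene Gpam (153 to 246 CPM in fWT and 177 to 329 CPM in mWT, log2 fold change 0.51, SE 0.147, adjusted p = 0.0302). Scd1, the stearoyl-CoA desaturase, was at 7046, 13310 and 17824 CPM in mWT and 1979, 5770.2 and 9530.0 CPM in fWT (log2 fold change 1.23, SE 0.385, adjusted p = 0.0518). Gpam was not called without any 1 of mWT mice 1, 2, 3 or 6 or fWT mice 2, 3, 5 or 6 (adjusted p from 0.0502 to 0.0649) or with library totals (0.0644), while without mWT mouse 4 the count was 4 and without fWT mouse 4 it was 6, Scd1 being called in both (0.0392 and 0.0338). DESeq2 called 7 of the 24 genes, all higher in mWT, with Scd1 among them at an adjusted p-value of 0.00558 (0.021 with non-robust dispersions and 0.0485 with the adjusted deviances of edgeR 4). Fasn, fatty acid synthase, had a log2 fold change of 0.10, SE 0.407, adjusted p = 0.907). Of 22 genes of cholesterol synthesis 0 were called.

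Fatty acid oxidation genes and targets of PPARalpha, the fasting-related fatty acid sensor, were listed together. Of these 31 genes, 7 were higher in fWT and 4 in mWT, beside 8.17% and 7.29% of all tested genes. The counts were 11 higher in fWT without mWT mouse 2 and 2 higher in mWT without mWT mouse 6. Higher in fWT, beside the Cyp4a genes, were acyl-CoA thioesterase genes such as Acot3, at 33.4 to 242 CPM in fWT, 33 CPM in mWT mouse 2 and 0.634 to 4.68 CPM in the other males (log2 fold change -4.08, SE 0.906, adjusted p = 0.0127). The peroxisomal transporter gene Abcd2 was at 59.5 to 109 CPM in fWT and 5.86 to 25.5 CPM in mWT (-2.56, SE 0.332, adjusted p = 0.000385). The peroxisomal thiolase gene Acaa1b (0.59, SE 0.122) was higher in mWT without overlap between the sexes. Nudt7, a peroxisomal coenzyme A hydrolase that is not among the 31 listed genes, was at 564 to 1174 CPM in mWT and 186 to 370 CPM in fWT (1.90, SE 0.197).

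In glucose metabolism 2 of 17 genes were called higher in mWT, beside 7.29% of all tested genes. The 2 were G6pc (log2 fold change 0.63, SE 0.176, adjusted p = 0.025), which releases glucose, and Pfkfb3 (1.48, SE 0.431, adjusted p = 0.0418), which promotes glycolysis. Irs2, an insulin receptor substrate, was higher in fWT (-1.22, SE 0.293, adjusted p = 0.0166). All 3 overlapped between the sexes, and the count of 2 higher in mWT was 0 without mWT mice 3 or 6 or fWT mice 1 or 2, and 1 without mWT mice 4 or 5 or fWT mouse 5. Pfkfb3 was not called without any 1 of mWT mice 1, 3, 4, 5 or 6 or fWT mice 1, 2, 4 or 5 (adjusted p from 0.0552 to 0.0836) or with no filter (0.0612), nor G6pc without mWT mice 3 or 6 or fWT mice 1 or 2 (from 0.0502 to 0.0557). Ccnd1, the cyclin that drives entry into the cell cycle, was at 73.9 to 102 CPM in fWT and 16.9 to 48.2 CPM in mWT (-1.67, SE 0.233, adjusted p = 0.00049). Beside 7.29% of all tested genes, 3 of 18 cell cycle genes, Ccne1, Birc5 and Rrm2, were higher in mWT (1.05, 0.92 and 0.69).

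Of 9 Kupffer cell and macrophage markers, 6 were called higher in fWT and 0 in mWT, at a median of -0.72 on the log2 scale and at a summed level of 94 to 196 CPM in mWT and 175 to 302 CPM in fWT. Clec4f, a defining Kupffer cell lectin, was at 45.8 to 87.9 CPM in fWT and 24 to 52.1 CPM in mWT (log2 fold change -0.74, SE 0.196, adjusted p = 0.0231), and Cd5l, a macrophage-secreted protein, at 45.9 to 87 CPM and 27.2 to 50.3 CPM (-0.84, SE 0.188). Clec4f was not called without fWT mouse 1 (adjusted p = 0.0517) or fWT mouse 3 (0.0503). In bulk liver, fewer cells of a type and less of its RNA per cell cannot be told apart. The count of 6 fell to 4 with no expression filter and ranged from 2 to 7 when single mice were left out, being at 2 without fWT mice 1 or 3, at 3 without mWT mice 2 or 6 or fWT mouse 4, and at 4 without mWT mice 3 or 5.

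MHC class II genes, which present antigen on macrophages, dendritic cells and B cells, were higher in fWT for 6 of 7, and their median was -1.03 on the log2 scale. H2-Eb1 was at 10.8, 14.3 and 23.5 CPM in fWT and 6.39, 7.64 and 10.2 CPM in mWT (log2 fold change -0.98, SE 0.169, adjusted p = 0.00108), without overlap. H2-Aa (-1.06, SE 0.221), H2-Ab1 (-1.03, SE 0.23) and Cd74 (-0.87, SE 0.226) overlapped. The part of the macrophage markers in this difference was not tested. None of the 4 B cell, 7 T and NK cell and 4 neutrophil markers passed the filter, so their difference between the sexes was not tested. The B cell markers summed to 0.903 to 3.2 CPM in mWT and 1.78 to 3.62 CPM in fWT. For T and NK cell markers the sums were 0.38 to 1.55 CPM in mWT and 1.445 to 4.55 CPM in fWT. Neutrophil markers summed to 0.0634 to 0.56 CPM in mWT and 0.155 to 1.42 CPM in fWT.

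Of 18 interferon-stimulated genes 5 were higher in fWT and 0 in mWT. Among endothelial markers 2 of 8, among stellate cell markers 1 of 10, and among cholangiocyte markers 2 of 3 were higher in fWT, beside 8.17% of all tested genes, and 0 in mWT. The endothelial count was 1 without mWT mice 5 or 6 or fWT mice 1 or 5 and 4 without fWT mouse 6, and the cholangiocyte count was 1 without any single mouse other than mWT mice 1 or 6 or fWT mouse 2. Of 9 tested hepatocyte markers 2 were called, Trf and Ahsg, both higher in fWT, and albumin was among the 7 others. The defining hepatocyte genes were thus at high level in both sexes, with a summed level of 114600 to 153600 CPM in mWT and 130000 to 181200 CPM in fWT.

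Genes expressed around the central vein were higher in fWT for 7 of 16 and in mWT for 0, and their median was -0.40 on the log2 scale. Glul, glutamine synthetase, was at 1105 to 1681 CPM in fWT and 926 to 1082 CPM in mWT (log2 fold change -0.41, SE 0.0981, adjusted p = 0.01), and Lect2, a hepatokine, at 105 to 186 CPM and 75.3 to 115 CPM (-0.86, SE 0.129, adjusted p = 0.000322). Of 14 periportal genes, 1 was higher in mWT and 2 in fWT, beside 7.29% and 8.17% of all tested genes.

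Some large groups held 1 call or none. Of 72 tested ribosomal protein genes and 16 circadian clock genes 0 were called, and of 34 subunits of respiratory complex I 1 was called. Of 36 proteasome subunits 4 were called, all higher in mWT, beside 7.29% of all tested genes. Their log2 fold changes lay between -0.26 and 0.24 for the ribosomal proteins and between -0.15 and 0.22 for complex I. With library totals in place of TMM, 2 ribosomal protein genes were called higher in fWT and 1 proteasome subunit in mWT. The proteasome count was also 1 with no expression filter and without any 1 of mWT mice 1, 3 or 6 or fWT mice 1, 3 or 6, and 2 without mWT mice 2 or 4.

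**Figure D5:**
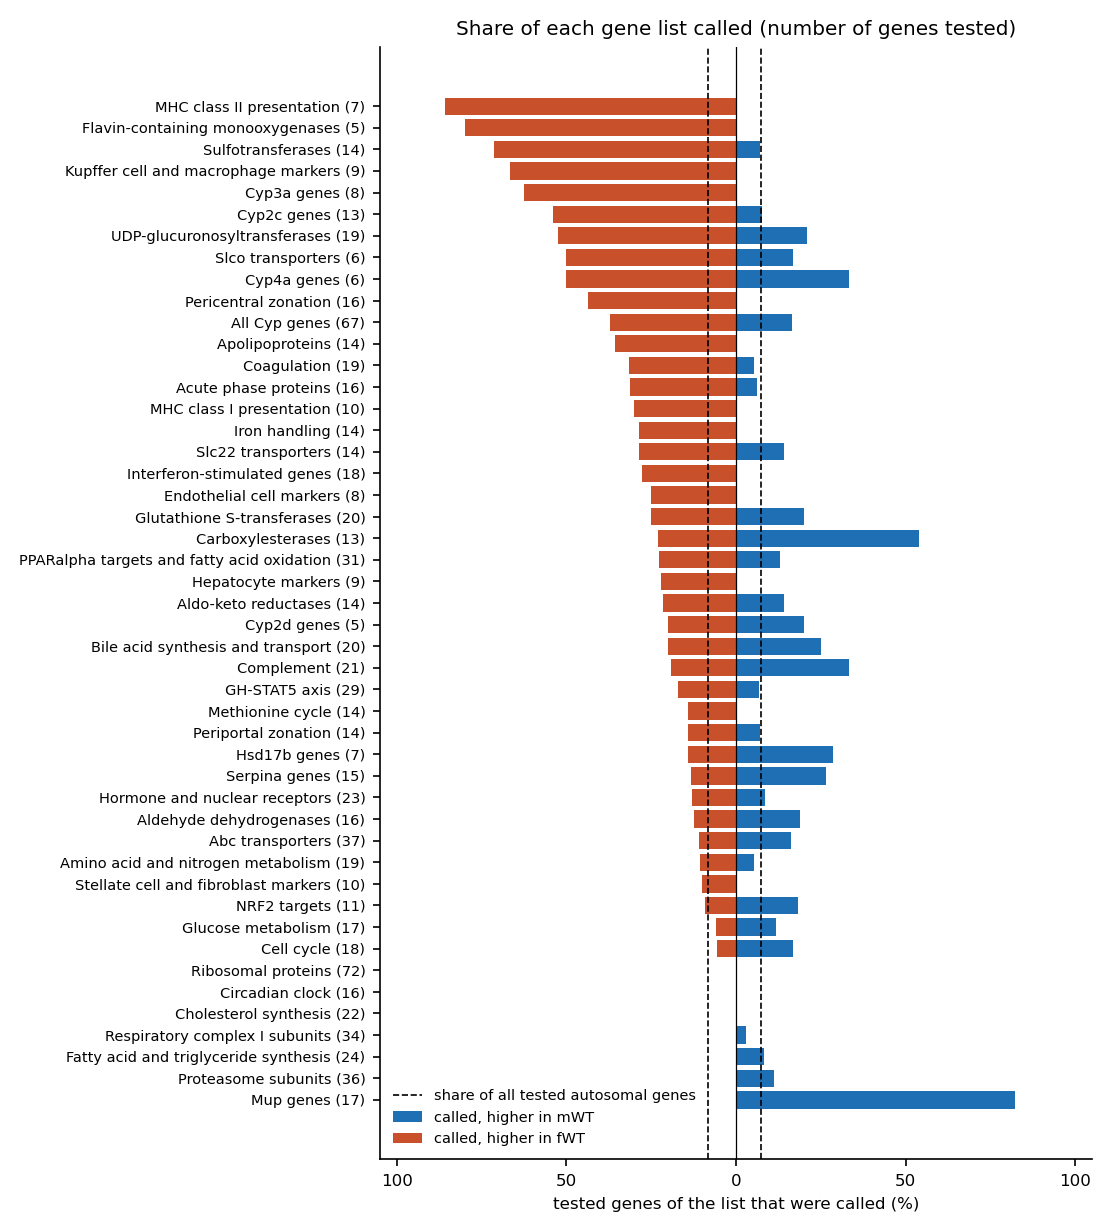
Share of the tested genes of each list called higher in mWT (blue, right) or in fWT (red, left), in percent, with the number tested in brackets; the dashed lines are the shares over all tested autosomal genes, 7.29% and 8.17%. Among the lists drawn, which hold at least 5 tested genes, the MHC class II, flavin-containing monooxygenase, sulfotransferase and Kupffer cell lists have the highest shares in fWT and the Mup and carboxylesterase lists in mWT, while the ribosomal, clock and cholesterol synthesis lists have no called gene.

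Genes known from textbooks for a sex difference in liver were listed with earlier results of these data known, so their counts are a check of the tissue and no independent support. Of 21 male-biased genes tested 20 were called higher in mWT, Bcl6 being the exception, and of 37 female-biased genes 36 were called higher in fWT, Cd36 being the exception (log2 fold change -0.42, SE 0.232, adjusted p = 0.256, and 0.0017 without mWT mouse 2). Among the male-biased ones not yet described, Selenbp2, a selenium-binding protein, was at 566 to 1814 CPM in mWT and 28.5 to 56.2 CPM in fWT (log2 fold change 4.40, SE 0.333), and Susd4, a complement regulator, at 26 to 51.2 CPM and 1.72 to 3.56 CPM (3.78, SE 0.218). Among the female-biased ones, Vldlr, the VLDL receptor, was at 6.3 to 14.2 CPM in fWT and 0.815 to 3.75 CPM in mWT (-2.58, SE 0.293).

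The genes with a difference of at least 2-fold lay on every autosome, and many lay side by side. By a rule set after the values were seen, 14 runs of 3 or more adjacent tested genes shared a direction at this size, 5 higher in mWT and 9 in fWT, with 52 genes in all. In GRCm38, the female runs held Cyp2b10, Cyp2b13, Cyp2b9, Cyp2a4 and Cyp2g1 on chromosome 7 (25897620 to 26821205), 5 Sult2a genes on chromosome 7 (13623967 to 14254870), 4 Cyp3a genes on chromosome 5 (145436309 to 145805874) and 4 Cyp2c genes on chromosome 19 (39688834 to 40012243). Also among the female runs were guanylate-binding proteins, interferon-inducible GTPases, with Gbp3, Gbp2b and Gbp2 on chromosome 3 (142560026 to 142638008) at log2 fold changes from -1.35 to -1.29, and Gm43302, Gbp10 and Gbp6 on chromosome 5 (105214907 to 105293698) from -1.38 to -1.02. Of the male runs 3 were parts of the Mup cluster on chromosome 4, another was Nat8f6, Nat8f5 and Nat8 on chromosome 6 (85808024 to 85832082), and the last was Lama3, Ttc39c and Cabyr on chromosome 18. Neighbouring paralogs share sequence, so the genes of a run are not independent of each other.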

How the data were processed

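Hepatic mRNA was measured in 6 mWT and 6 fWT mice. Single-end reads of 100 bases were trimmed by the authors (fastp 0.20), mapped with STAR 2.7a to the GRCm38.p6 build and assigned to genes by featureCounts; versions are from the submitters' processing notes. The deposited values are raw read counts for each Ensembl gene, neither scaled nor filtered. The strand setting, the annotation release and the treatment of reads with several matches are not given in the sources used here, so counts of near-identical or overlapping genes are uncertain. All pairs of mice within a group differed by more than sampling noise (lowest chi-square per gene 19.9).

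Of 25746 listed genes 25712 were matched to GENCODE M21 for symbols and coordinates. The model was fitted with edgeR 4.0.16 under R 4.3.3: 0.66 CPM in at least 6 of 12 libraries, TMM scaling, robust quasi-likelihood fit with one mean per group, and Benjamini-Hochberg adjustment over all chromosomes. Log2 fold changes are mWT over fWT. Their SE is the absolute log2 fold change divided by the square root of the test's F statistic. It can understate the error of the size for genes near zero in one group. The study's methods name the same filter over 24 libraries and an unadjusted p-value cut-off of 0.01, at which 940 autosomal genes were higher in mWT and 1043 in fWT here. The replicates are separate mice. Floors and intervals (95%) cover counting error only. Scores on principal components (log2 CPM, prior count 2) were compared by exact permutation tests.

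The genes named are the 12 with the greatest fold change in each direction (called, no overlap, at least 1 CPM in the higher group, no Mup or predicted gene), the 6 with the greatest difference in CPM, and members of gene lists. The members and lists were chosen with earlier results of these data known. Alternatives were other scalings, filters, dispersions and DESeq2 1.42.0, the mouse number as a block, and each mouse left out, with 5 in place of 6 libraries in the filter. Scaling by library totals was chosen after seeing the data. The procedure was tested on simulated data. Promoter sequences are RefSeq's, and windows of 100 bases of GENCODE M21 transcripts were compared between genes. Python 3.11.15, scipy 1.17.1 and matplotlib 3.10.9 were used. The knockout libraries were not used here, and some items that the rule names are not reported here.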

Additional observations from a re-analysis of the deposited data

Results flagged for a closer look

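In 11 of 267 groups of 6 mice tested over the named genes, 1 mouse stood apart from its group, its gap to the nearest mouse exceeding Dixon's 95% limit as a share of the group's range. Chance alone flags about 1 group in 20, which is 13.4 of 267. Among drug-metabolizing and transport genes, Cyp2b13 was at 148 CPM in fWT mouse 3 (256 to 352 CPM in the other females), Cyp8b1 at 306 CPM in mWT mouse 1 (407 to 468 CPM in the other males) and Cyp39a1 at 56.5 CPM in mWT mouse 5 (35.4 to 41.4 CPM). Ces3a was at 1980 CPM in mWT mouse 1 (2350 to 2550 CPM) and Slco1a4 at 35.7 CPM in mWT mouse 4 (80 to 119 CPM). In the lower sex, A1bg was at 0.306 CPM in mWT mouse 4 (0 to 0.0645 CPM), Cyp3a44 at 0.246 CPM in mWT mouse 5 (0 to 0.0592 CPM) and Capn8 at 0.5 CPM in fWT mouse 5 (0.125 to 0.207 CPM). Foxa3 was at 45.5 CPM in fWT mouse 6 (29.1 to 32.2 CPM). Lect2 had such a mouse in both sexes, mWT mouse 2 at 115 CPM (75.3 to 83.8 CPM) and fWT mouse 3 at 105 CPM (154 to 186 CPM).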

How the results depend on the processing

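The counts of called genes were computed under 11 other settings and with each mouse left out. Without an expression filter, 97 genes at least 4-fold higher in mWT and 99 higher in fWT were called, against 60 and 59; the cause was not tested. When single mice were left out, 677 to 884 genes were called higher in mWT and 666 to 1011 in fWT, the lowest counts being without mWT mouse 6 or fWT mouse 1. DESeq2's Wald test called 1092 and 1093, and 1796 of the 1800 main calls were among them in the same direction. With library totals, an alternative chosen after seeing the data, 608 and 1106 were called. The sign changed for 5 named genes that were not called. With the mouse number as a block, which called 754 and 902 genes, the log2 fold change was -0.0192 for Stat5a and -0.0500 for Cyp7a1; the deviations of mice of equal number correlated at -0.11 to 0.14, and 1 of 6 males correlated best with the female of its own number. With the block, Serpina3k (adjusted p = 0.0582), Irs2 (0.0791) and Gpam (0.0995) were not called, and Hamp (0.0178) and Cd36 (0.0378) were. With single mice left out, the log2 fold change was -0.21 to 0.21 for Stat5a, -0.17 to 0.0323 for Stat5b, -0.13 to 0.39 for Fasn, -0.28 to 0.27 for Cyp7a1 and -0.50 to 0.0582 for Cish. Depth limits statements on genes near 0.132 to 0.192 CPM, and 6 mice a group limit those on genes that vary within a sex.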
